A study of Homo sapiens with 8 samples.

Results

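The SPOCK genes encode the testicans, and their chromatin was followed through a TGFβ1 time course in MCF10A, a human breast epithelial cell line that grows without end in culture but does not form tumours. The members were SPOCK1, SPOCK2 and SPOCK3, 3 of 62700 genes in GENCODE 44. A region belonged to a member when it overlapped the gene body or the 100 kb on either side, which gave 106 of 126658 accessible regions, with 60 at SPOCK1, 24 at SPOCK2 and 22 at SPOCK3. The family was chosen by measured values, since SPOCK1 ranked high in gained distal peaks, so its gains are described below and support nothing by themselves.

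Open chromatin was mapped by ATAC-seq, an assay that marks nucleosome-free DNA by inserting sequencing adapters with the Tn5 enzyme, in 8 libraries. There were 2 replicates each of cells that received solvent and of cells that received 5 ng/ml of TGFβ1 for 6, 24 or 72 h. All groups were the same cell line, and the labels place solvent at time 0, although the study also describes control cells kept in solvent for 72 h. The authors called 1 peak list per condition on both replicates together, so every value below is a single value per condition without a replicate check, no p-value is given, and the usable read depth behind each list is unknown.

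Peak strength is given as AUC, which adds up the significance over the width of the peak and for which the authors set a minimum of 200. Peaks of the 4 lists that shared at least 1 bp were merged into regions. The AUC was summed per region and list and divided by the median ratio of that list to solvent at regions within 3 kb of a transcription start site (TSS), with factors of 1.36, 1.30 and 1.19 for the 6, 24 and 72 h lists. These values are called scaled AUC. The minimum of 200 therefore corresponded to a scaled AUC of 147, 154 and 169 at 6, 24 and 72 h, so the TGFβ1 lists reached weaker sites than the solvent list. A region was proximal within 3 kb of any TSS and distal otherwise, and gained when a TGFβ1 list had a peak and solvent had none.

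Testicans are secreted proteoglycans of the SPARC family that carry heparan sulfate or chondroitin sulfate chains. SPOCK1 encodes testican-1, which inhibits the lysosomal protease cathepsin L, and testican-1 and testican-3 can block the activation of pro-MMP2 by membrane-type matrix metalloproteinases, whereas testican-2 can lift that block. SPOCK1 has been linked to the epithelial-mesenchymal transition (EMT) that TGFβ1 drives in epithelial cells. Much of the gene control acts through distal elements, enhancers, which become accessible when transcription factors displace nucleosomes. Peaks show accessibility and not which gene a site controls.

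Gained and strengthened sites at SPOCK1 and SPOCK3 carried the pattern described here, and a few of them are shown as the summit with 100 bp on each side, on the plus strand of GRCh38, from the reference genome. The motif TGACTCA or its other strand TGAGTCA, bound by AP-1 factors of the JUN and FOS families, is in capitals. SPOCK1-31, SPOCK1-2 and SPOCK1-37 had the largest scaled AUC at 72 h among SPOCK1 regions seen at 6, 24 and 72 h but not in solvent. SPOCK1-39, SPOCK1-34 and SPOCK1-33 had the largest fold difference at 72 h among regions with a peak in all lists. SPOCK3-15 was the strongest gained site of SPOCK3. Their windows are chr5:137370178-137370378, chr5:136906610-136906810, chr5:137486823-137487023, chr5:137491328-137491528, chr5:137415276-137415476, chr5:137395502-137395702 and chr4:167114723-167114923. Except for SPOCK1-2, in the downstream flank, all lay in intron 2 of their gene, and none touched an exon of a SPOCK gene.
SPOCK1-31: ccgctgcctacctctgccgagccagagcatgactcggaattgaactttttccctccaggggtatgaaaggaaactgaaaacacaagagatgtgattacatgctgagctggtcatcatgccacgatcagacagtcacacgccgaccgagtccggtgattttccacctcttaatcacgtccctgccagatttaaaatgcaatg
SPOCK1-2: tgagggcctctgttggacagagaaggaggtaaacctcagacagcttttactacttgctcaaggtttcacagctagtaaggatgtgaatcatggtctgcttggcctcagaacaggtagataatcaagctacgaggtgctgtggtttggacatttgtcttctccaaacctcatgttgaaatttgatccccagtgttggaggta
SPOCK1-37: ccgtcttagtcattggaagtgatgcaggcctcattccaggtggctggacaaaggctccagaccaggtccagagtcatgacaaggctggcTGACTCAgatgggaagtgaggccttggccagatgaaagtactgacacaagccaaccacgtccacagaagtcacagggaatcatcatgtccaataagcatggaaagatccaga
SPOCK1-39: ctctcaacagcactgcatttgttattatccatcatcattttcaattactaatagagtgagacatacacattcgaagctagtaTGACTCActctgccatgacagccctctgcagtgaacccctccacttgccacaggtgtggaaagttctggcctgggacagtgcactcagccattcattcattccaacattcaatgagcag
SPOCK1-34: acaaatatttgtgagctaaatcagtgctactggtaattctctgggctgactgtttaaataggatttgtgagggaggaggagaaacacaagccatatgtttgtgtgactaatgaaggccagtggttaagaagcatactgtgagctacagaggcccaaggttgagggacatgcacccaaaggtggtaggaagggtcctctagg
SPOCK1-33: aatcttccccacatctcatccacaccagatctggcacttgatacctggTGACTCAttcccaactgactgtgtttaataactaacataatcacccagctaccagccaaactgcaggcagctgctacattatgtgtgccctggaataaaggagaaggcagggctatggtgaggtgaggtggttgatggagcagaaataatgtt
SPOCK3-15: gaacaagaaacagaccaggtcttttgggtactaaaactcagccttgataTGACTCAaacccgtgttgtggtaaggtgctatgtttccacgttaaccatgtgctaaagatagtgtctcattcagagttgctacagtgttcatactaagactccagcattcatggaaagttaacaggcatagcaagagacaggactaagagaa

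The 3 genes lie on the minus strand and have 11 exons in their MANE Select transcript. SPOCK1 (ENSG00000152377.15, chr5:136975298-137598379) spans 623 kb, SPOCK3 (ENSG00000196104.11, chr4:166733384-167234796) spans 501 kb, and SPOCK2 (ENSG00000107742.14, chr10:72059034-72089032) only 29999 bp. Per 100 kb of window the SPOCK2 locus had the most regions (10.4), ahead of SPOCK1 (7.29) and SPOCK3 (3.14). Most were distal, 56 of 60 at SPOCK1, 17 of 24 at SPOCK2 and 20 of 22 at SPOCK3. Other genes also have a TSS in these windows: KLHL3, MIR874 and RNA5SP193 at SPOCK1, CHST3, ASCC1, the long non-coding RNA ENSG00000272988 and the snoRNA ENSG00000200294 at SPOCK2, and the long non-coding RNA ENSG00000250150 and RNA5SP171 at SPOCK3. Just beyond the window limits, the nearest regions lay 63385 bp and 31986 bp away at SPOCK1 (scaled AUC at 72 h 1323 and 743), 2034 bp and 9353 bp at SPOCK2 (1347 and 429), and 38744 bp and 174747 bp at SPOCK3 (542 and 1415). The outermost regions inside lay 11346 bp and 37551 bp from the limits at SPOCK1, 4957 bp and 13560 bp at SPOCK2, and 42077 bp and 51812 bp at SPOCK3.

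To see whether the main promoters opened, the MANE TSS of each gene was examined first. The SPOCK1 promoter region (SPOCK1-41, chr5:137498440-137499507, covering exon 1) was accessible in solvent and had a scaled AUC of 1879, 2143, 2080 and 1971 in solvent and at 6, 24 and 72 h, which is 1.05-fold at 72 h. The SPOCK3 promoter (SPOCK3-20, chr4:167234020-167234867) was weaker, with 854, 1097, 1155 and 1153, or 1.35-fold at 72 h. The scaling itself holds shared proximal regions at their solvent level in the median. With AUC not scaled, SPOCK1-41 had 1879, 2911, 2707 and 2338, and SPOCK3-20 had 854, 1490, 1502 and 1369. SPOCK2 had no region at its MANE TSS in any list, the nearest lying 6.13 kb inside the gene and 9.18 kb upstream. For comparison, 67.2% of 19016 protein-coding MANE promoters had a region within 500 bp, and the median log2 ratio at 72 h of the 12326 with a peak in both lists was -0.09. Further start sites inside the genes were weaker in solvent. A weaker site 1.76 kb into SPOCK1 (SPOCK1-40, chr5:137497422-137497663) had 248, 455, 658 and 601, and SPOCK1-28 (chr5:137309977-137311024), near an alternative SPOCK1 TSS 189 kb into the gene, had 1357, 1586, 1690 and 1975. The internal SPOCK3 start site (SPOCK3-13) gave 531, 644, 741 and 670, and SPOCK2-16, at an internal SPOCK2 TSS, had no peak in solvent and at 6 h and then 154 and 193.

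Summed over its window, SPOCK1 had a scaled AUC of 49746, 63395, 72104 and 77094 in solvent and after 6, 24 and 72 h. This is a log2 ratio to solvent of 0.35, 0.54 and 0.63. The scaled level was thus higher at each later time, and 49.9% of the total difference of 27348 was present by 6 h, 31.8% was added by 24 h and 18.2% by 72 h. This division depends on the scaling. With AUC not scaled, the SPOCK1 log2 ratios were 0.79, 0.92 and 0.88. Most of the unscaled difference was thus present by 6 h, and the level was lower at 72 h than at 24 h. SPOCK3 had a scaled AUC of 8224, 12254, 14602 and 15688, log2 ratios of 0.58, 0.83 and 0.93, with a similar division over the steps (54.0%, 31.5% and 14.6%). With AUC not scaled, the SPOCK3 ratios were 1.02, 1.21 and 1.18, so here too most of the difference was present by 6 h and 72 h was lower than 24 h. SPOCK2 had a scaled AUC of 25700, 28846, 28841 and 28779, and its log2 ratio was 0.17, 0.17 and 0.16, so the 3 values after TGFβ1 lay within 67.4 of each other. This flat course also depends on the processing. The SPOCK2 ratios were 0.61, 0.55 and 0.41 with AUC not scaled, and 0.18, 0.42 and 0.37 with scaled AUC in the gene body alone. Per 100 kb of window, the order of levels was SPOCK2 (11174 in solvent and 12513 at 72 h), SPOCK1 (6044 and 9367) and SPOCK3 (1172 and 2237) in every list, and without replicate values it cannot be said which neighbours differ beyond their spread. This order is one of windows and not of genes, since most of the SPOCK2 sum lay in the flanks. Regions in the SPOCK2 body summed to 1056 in solvent and 1365 at 72 h, against 39528 and 63389 in the SPOCK1 body.

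**Figure D1:**
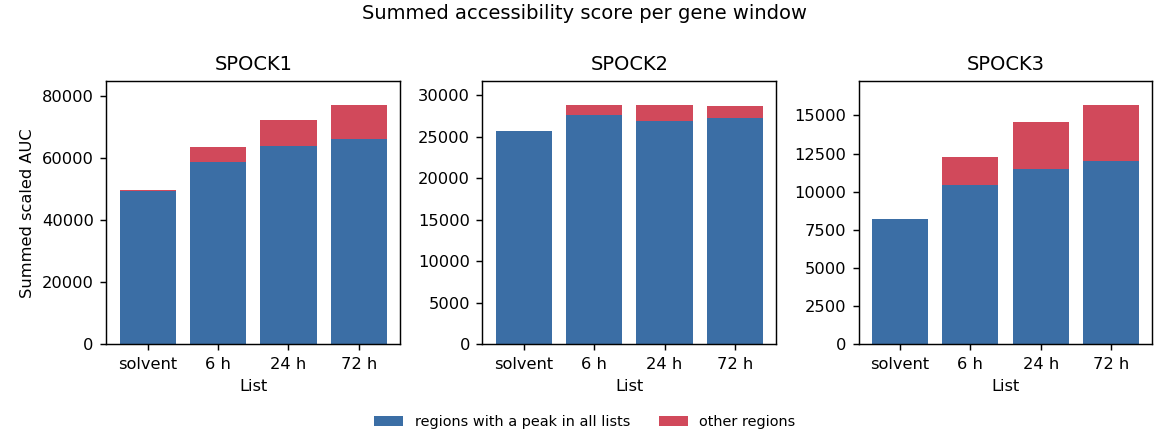
Summed scaled AUC (linear axes starting at 0, with a different range per gene) in the 4 lists for each gene window, with regions that had a peak in all lists in blue and all other regions in red. SPOCK1 goes from 49746 to 77094 and SPOCK3 from 8224 to 15688 between solvent and 72 h, and SPOCK2 stays between 25700 and 28846.

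Over 19347 protein-coding gene windows of the same kind, the median log2 ratio was 0.06, 0.12 and 0.13 at 6, 24 and 72 h, and 3.31%, 8.77% and 10.4% of them were at least 1.5-fold higher, while 0.0258% were at least 1.5-fold lower at 72 h. SPOCK1 (1.27-, 1.45- and 1.55-fold) was past 1.5-fold at 72 h, SPOCK3 (1.49-, 1.78- and 1.91-fold) at 24 and 72 h, and SPOCK2 (1.12-fold each time) at no time. These calls depend on the processing, 1.5-fold being 0.58 on the log2 scale. SPOCK1 at 72 h was below it with lists of equal length (log2 ratio 0.57), with AUC scaled on all shared regions (0.49), over regions with a peak in all lists (0.41) and with missing peaks set at the AUC threshold (0.52). SPOCK3 was below it over regions with a peak in all lists (0.48 at 24 h and 0.55 at 72 h) and, with missing peaks at the threshold, at 24 h (0.56). SPOCK2 was past it at 24 and 72 h when regions were assigned to the nearest TSS (0.84 and 0.97). At 72 h, 8.92% of all windows had a higher ratio than SPOCK1, 43.9% than SPOCK2 and 4.04% than SPOCK3. Among the 7638 windows with at least 20 regions, 4.88% exceeded SPOCK1. Part of a summed AUC is the length called as peak, and the covered length at SPOCK1 was 19.3 kb in solvent and 28.6, 29.3 and 29.4 kb after TGFβ1. The scaled AUC per covered base was 2.58, 2.22, 2.46 and 2.62. SPOCK3 had 4.12 kb and then 7.40, 7.68 and 7.59 kb covered and 1.99, 1.66, 1.90 and 2.07 per base. SPOCK2 had 11.2, 14.8, 14.8 and 13.8 kb and 2.30, 1.94, 1.95 and 2.08 per base.

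The sums had contributions from sites already open and from sites without a solvent peak. At SPOCK1, 36 of 60 regions had a peak in all lists (60.0%), against 62.6% of all regions of the series and 56.9% of all distal regions. These 36 regions accounted for 60.2% of the difference at 72 h. A further 12 regions had peaks from 6 h on but none in solvent (20.0%; 14.3% of all regions and 16.8% of all distal regions). Another 5 appeared by 24 h (8.33%; 7.55% of all and 9.35% of distal regions) and 3 at 72 h alone (5.00%; 4.61% and 5.73%). Of the remaining 4, SPOCK1-53 was lost, 2 had a peak at 6 h alone and 1 at 6 and 24 h. SPOCK3 had 13 regions in all lists, 6 from 6 h on, 2 by 24 h and 1 at 6 h alone, and SPOCK2 had 17, 3, 2 and, at 6 and 24 h alone, another 2. In SPOCK1 38 of 60 regions had their highest value at 72 h, against 12 of 22 at SPOCK3 and 7 of 24 at SPOCK2. The 38 include the 3 seen at 72 h alone, which count by construction. The share over all regions was not computed, so these counts are a description only.

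**Figure D2:**
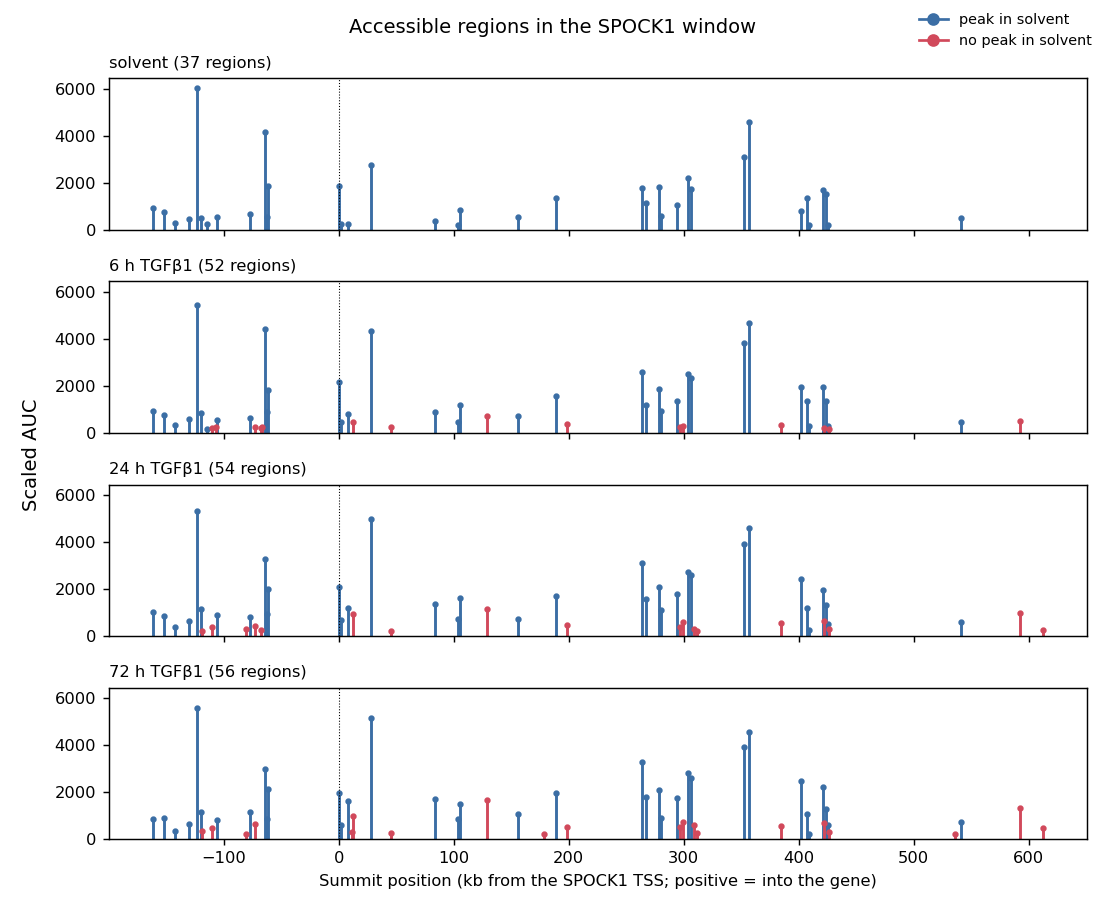
Scaled AUC (linear axis) of each SPOCK1 region in solvent and after 6, 24 and 72 h of TGFβ1 against the distance of its summit from the MANE TSS in kb, with positive values into the gene; blue regions had a solvent peak and red regions had none. The number of regions goes from 37 in solvent to 52, 54 and 56. The promoter at 0 kb stays between 1879 and 2143 in scaled AUC, with the lists scaled on regions near a TSS.

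Gained regions at SPOCK1 numbered 15 of 52 with a peak at 6 h, 18 of 54 at 24 h and 20 of 56 at 72 h (28.8%, 33.3% and 35.7%), and all of them were distal. Over the whole series the shares were 23.0%, 30.2% and 30.1%. Among distal regions alone SPOCK1 had 31.3%, 36.0% and 38.5% gained, against 26.9%, 35.7% and 36.3% of all distal regions. With lists of equal length, SPOCK1 had only 6, 10 and 12 gained (14.3%, 22.2% and 26.1%, against 9.19%, 13.2% and 15.6% of all regions). Since SPOCK1 was picked for its number of gained distal peaks, these shares are a description only. SPOCK3 had 7 of 20, 8 of 21 and 8 of 21 gained, and SPOCK2 had 5 of 22, 7 of 24 and 5 of 22. One SPOCK1 region with a solvent peak had none at 72 h, and SPOCK2 and SPOCK3 lost none at any time, where the series lost 0.714%, 1.86% and 3.44% at 6, 24 and 72 h. The lost site, SPOCK1-53 (chr5:137613599-137613902), was weak, with 226 in solvent, 158 at 6 h and no peak later.

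The SPOCK1 sites gained at 6, 24 and 72 h had a median scaled AUC of 247, 375 and 485 (224, 267 and 304 over all gained regions). These medians are over 15, 18 and 20 sites and do not follow 1 set. The 12 sites with peaks from 6 h on summed to 3934, 6874 and 8577, though not every site was higher at each later time. The strongest gained site, SPOCK1-31 in intron 2 (chr5:137370073-137371096), had no solvent peak and then 694, 1132 and 1651. SPOCK1-2 (chr5:136906538-136906998), 593 kb from the MANE TSS and beyond the 3′ end of the gene, had 491, 957 and 1296. SPOCK1-37 (chr5:137486743-137487065), 12.4 kb into the gene, had 470, 920 and 980. In intron 3, SPOCK1-20 had 284, 577 and 722, and in intron 5, SPOCK1-8 had 200.6, 618 and 695. All 5 were higher at 72 h than at 6 h, by 2.09- to 3.46-fold. They were picked for their value at 72 h, which favours such a difference, so this is a description only. Sites seen early and then not were near the threshold: SPOCK1-51 with 231 at 6 h alone, SPOCK1-45 with 223 at 6 h alone, and SPOCK1-46 with 204 at 6 h and 227 at 24 h.

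The regions with a peak in both solvent and a TGFβ1 list come from the same contrast that picked SPOCK1, and their values are likewise a description. Of 37, 36 and 36 SPOCK1 regions with a peak in solvent and at 6, 24 or 72 h, 4, 7 and 8 were at least 2-fold higher than in solvent, that is 10.8%, 19.4% and 22.2%, where 3.45%, 8.37% and 10.5% of all such regions were. None was at least 2-fold lower in any member, where 0.215%, 0.935% and 1.23% of all were. SPOCK3 had 1, 1 and 3 of 13 and SPOCK2 had 0, 2 and 1 of 17 at least 2-fold higher. The median log2 ratio was 0.23, 0.41 and 0.56 at SPOCK1, 0.36, 0.48 and 0.41 at SPOCK3 and 0.07, 0.09 and 0.06 at SPOCK2, against 0.06, 0.12 and 0.15 over all regions. The backgrounds over all regions given here include proximal regions, on which the lists were scaled, while most SPOCK regions were distal. Of the 8364 regions of the series at least 2-fold higher at 72 h, 6548 were distal. Shares and medians over distal regions alone were not computed, so the contrast with the series may be overstated. At 72 h, 29 of 36 SPOCK1, 13 of 13 SPOCK3 and 10 of 17 SPOCK2 regions were above their solvent value (80.6%, 100% and 58.8%), against 63.9% of all such regions. In 16 of 36 SPOCK1 regions the value was higher at every step, against 3 of 13 at SPOCK3, 3 of 17 at SPOCK2 and 22.8% of all regions.

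**Figure D3:**
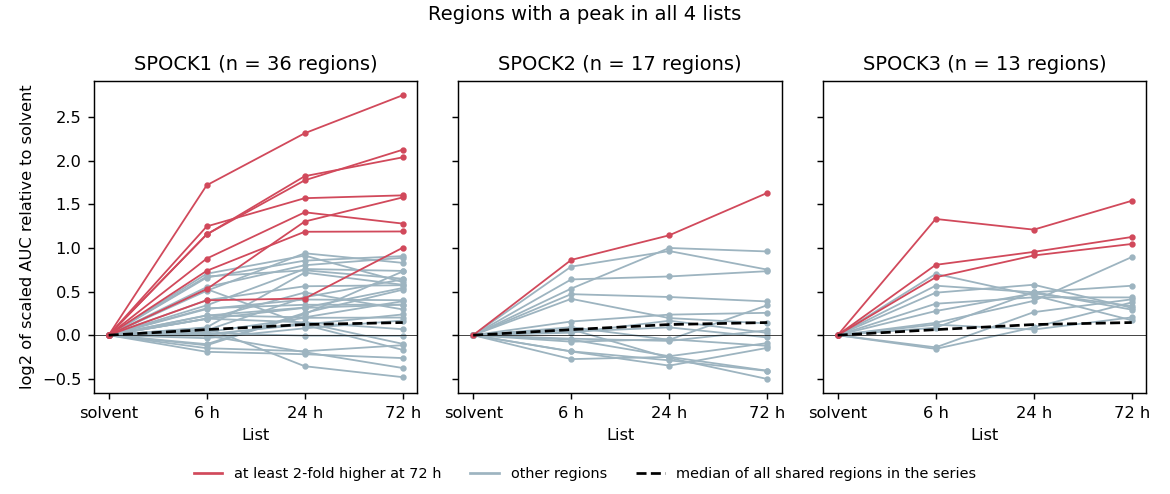
Log2 of scaled AUC relative to solvent (linear axis of log2 values) in each list for every region with a peak in all 4 lists, with regions at least 2-fold higher at 72 h in red, the others in grey and the median of all regions of the series shared with solvent as a dashed line. There are 8 red lines at SPOCK1, 1 at SPOCK2 and 3 at SPOCK3, and at SPOCK3 all 13 lines end above 0.

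SPOCK1-39 (chr5:137491067-137491587), 7.90 kb from the MANE TSS, had the largest difference, with 241 in solvent and 793, 1200 and 1624 after TGFβ1, or 6.74-fold at 72 h. SPOCK1-34 (chr5:137415208-137415823) had 391, 872, 1341 and 1710 (4.37-fold), and SPOCK1-33 (chr5:137395418-137395806) had 200, 446, 709 and 823 (4.11-fold). These 3 sites lie in intron 2, as do SPOCK1-31 and SPOCK1-37. Outside that intron, SPOCK1-12 in intron 5 had 817, 1940, 2428 and 2484 (3.04-fold) and SPOCK1-6, also in intron 5, had 201.1, 290, 497 and 601 (2.99-fold). Of the sites strong in solvent, SPOCK1-36 (chr5:137470019-137471246, intron 2, 28.5 kb from the TSS) added most to the sum, with 2752, 4351, 4978 and 5160 (1.88-fold).

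Strong distal sites elsewhere in the locus differed among themselves. SPOCK1-14 in intron 3 had 4594, 4672, 4576 and 4569, and SPOCK1-15 nearby had 3087, 3822, 3931 and 3932. SPOCK1-26, also in intron 3, had 1769, 2592, 3085 and 3273 (1.85-fold). SPOCK1-56 (chr5:137621839-137623453), the strongest region of the window, had 6031, 5439, 5309 and 5569 and lies inside KLHL3, an adaptor of a cullin ubiquitin ligase, as did 7 of the 60 regions. An alternative start site inside KLHL3 (SPOCK1-57) had 466, 574, 619 and 616. The largest decrease among regions with a peak in all lists was at SPOCK1-44 (chr5:137563152-137565335), at -64.5 kb from the MANE TSS and thus upstream, which had 4178, 4432, 3264 and 2992 (0.716-fold). SPOCK1-11 and SPOCK1-7, both in intron 5 like the gained SPOCK1-8, were at 0.770- and 0.834-fold at 72 h, and SPOCK1-10 at 0.889-fold. Neighbouring sites of 1 intron therefore stood on both sides of their solvent level.

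By position, intron 2 of SPOCK1 held 14 regions, 8 with a solvent peak and 6 gained at 72 h, and its summed scaled AUC was 6569, 12174, 15624 and 18364, or 2.80-fold at 72 h with a missing peak counted as 0. Over the 8 of them with a peak in all lists it was 6569, 10412, 12911 and 14468, or 2.20-fold. Intron 3 with 13 regions had 18004 in solvent and 25802 at 72 h (1.43-fold), and intron 5 with 8 regions had 5802 and 8801 (1.52-fold). Upstream of the MANE TSS but inside the annotated gene, 8 regions had 7273 and 7912 (1.09-fold), and the 11 regions of the upstream flank had 9711 and 11018 (1.13-fold). The 4 regions of the downstream flank had 508 and 2687, 3 of them gained. Leaving out the 7 regions inside KLHL3, the SPOCK1 window was at 1.65-fold.

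The SPOCK3 window had a lower level than the windows of SPOCK1 and SPOCK2. SPOCK3-15 in intron 2 had no solvent peak and then 350, 953 and 1246, the highest gained value of the gene. SPOCK3-6 (chr4:166941682-166942050, intron 4) had 711, 1127, 1340 and 1468 (2.07-fold). The other strong sites were closer to their solvent values, SPOCK3-8 over exon 4 having 813, 1140, 1214 and 1011, SPOCK3-7 in intron 4 787, 1167, 1107 and 1167, and SPOCK3-16 in intron 2 894, 802, 951 and 1160. Gained sites included SPOCK3-3 in intron 6 with no peak in solvent and at 6 h and then 324 and 576, SPOCK3-4 in the same intron with 197, 326 and 454, SPOCK3-17 in intron 2 with 367, 495 and 470, and SPOCK3-9 in intron 3 with 285, 360 and 230. Upstream of the gene, SPOCK3-21 and SPOCK3-22, at -47.9 kb and -48.2 kb from the MANE TSS, were at 223 and 295 in solvent and 649 and 643 at 72 h (2.91- and 2.18-fold). Intron 2 summed to 1425 in solvent and 3977 at 72 h (2.79-fold) with missing peaks counted as 0, and to 1425 and 1830 (1.28-fold) over its 2 regions with a peak in all lists. The 3 such regions of intron 4 had 1919 and 3417 (1.78-fold). No other protein-coding gene covers a region of this window.

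**Figure D4:**
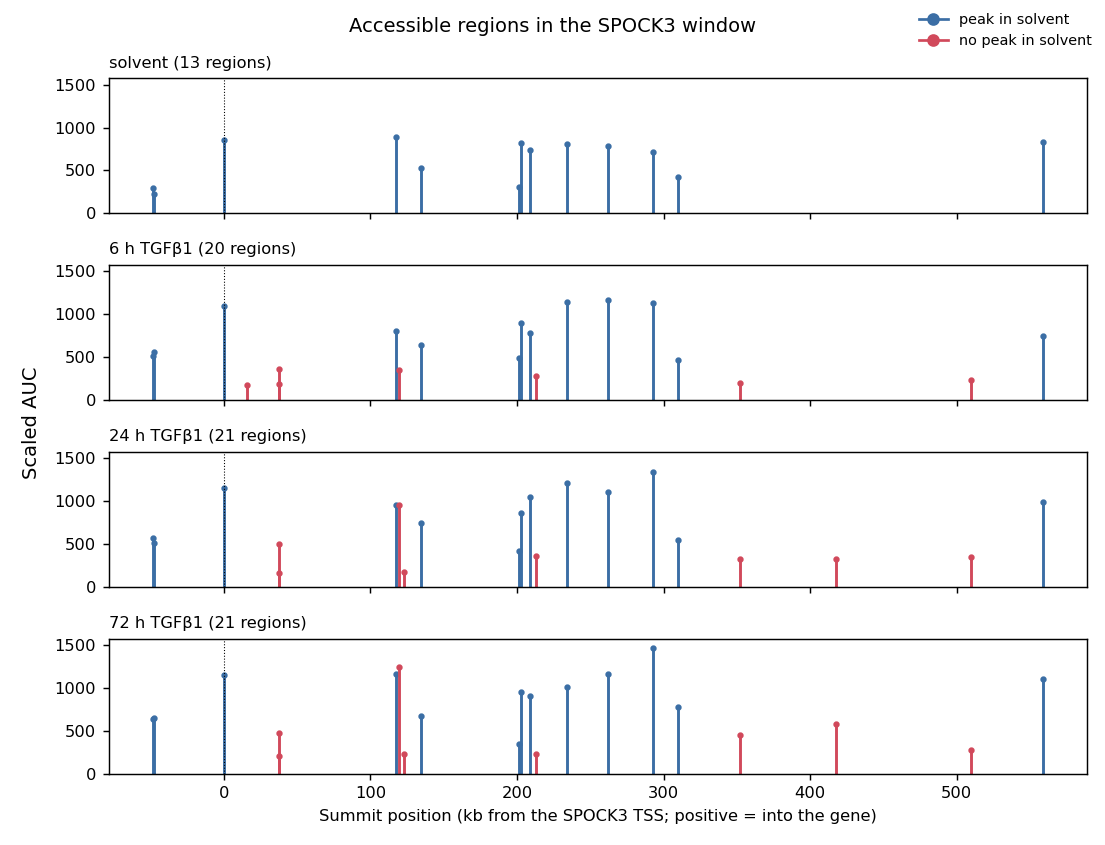
Scaled AUC (linear axis) of each SPOCK3 region in solvent and after 6, 24 and 72 h of TGFβ1 against the distance of its summit from the MANE TSS in kb, with positive values into the gene; blue regions had a solvent peak and red regions had none. The number of regions goes from 13 in solvent to 20, 21 and 21, and SPOCK3-15 reaches 1246 at 72 h.

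The SPOCK2 window was strong in solvent through its neighbours. Of its 24 regions, 17 lay inside CHST3, which encodes a chondroitin 6-sulfotransferase, or ASCC1, and 3 lay in SPOCK2 itself. SPOCK2-6 had 3800, 5266, 5148 and 4970, SPOCK2-10 had 4793, 4210, 3762 and 4332, and SPOCK2-9 had 2847, 2748, 2408 and 2673, all inside CHST3. The CHST3 promoter (SPOCK2-1) had 3181, 3021, 3081 and 2923, and SPOCK2-13, between both genes, had 1917, 1955, 2150 and 1953. Within SPOCK2, SPOCK2-17 in intron 1 (chr10:72081889-72082419) had 1056, 929, 865 and 795 (0.753-fold), and SPOCK2-15 in intron 9 had no solvent peak and then 266, 391 and 377. Gained sites in the flanks were SPOCK2-11 with 363, 441 and 308, SPOCK2-18 with 246, 360 and 386, and SPOCK2-24 with no peak at 6 h and then 232 and 183. SPOCK2-19, at -19.0 kb and inside ASCC1, had 282, 514, 625 and 875 (3.10-fold), the only region of the window at least 2-fold higher at 72 h.

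The related genes were taken from 4 lists with 31 genes: other SPARC family members, heparan sulfate proteoglycans, chondroitin and dermatan sulfate or other small matrix proteoglycans, and the proteases on which testicans act. At 6, 24 and 72 h, 2, 3 and 4 of the 31 windows were at least 1.5-fold higher (6.45%, 9.68% and 12.9%, against 3.31%, 8.77% and 10.4% of all windows) and none was 1.5-fold lower. The median log2 ratio at 72 h was 0.28 over all 31, 0.28 for the 5 SPARC family genes, 0.10 for the 13 heparan sulfate proteoglycans, 0.28 for the 9 chondroitin and dermatan sulfate proteoglycans and 0.26 for the 4 proteases, against 0.13 over all genes. Those past 1.5-fold at 72 h were GPC3, a cell-surface glypican (log2 ratio 0.97), DCN and LUM, which encode the collagen-binding proteoglycans decorin and lumican (3.27 and 3.32), and MMP16, a membrane-type matrix metalloproteinase (0.61). DCN and LUM are neighbours whose windows share regions, and both had a summed scaled AUC of only 379 in solvent and of 3670 and 3789 at 72 h. SPARC, the founding member of the family, had 79340 in solvent and 85345 at 72 h (0.11). The 5 SPARC family genes, SPARC included, ranged from 0.11 to 0.38 at 72 h.

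**Figure D5:**
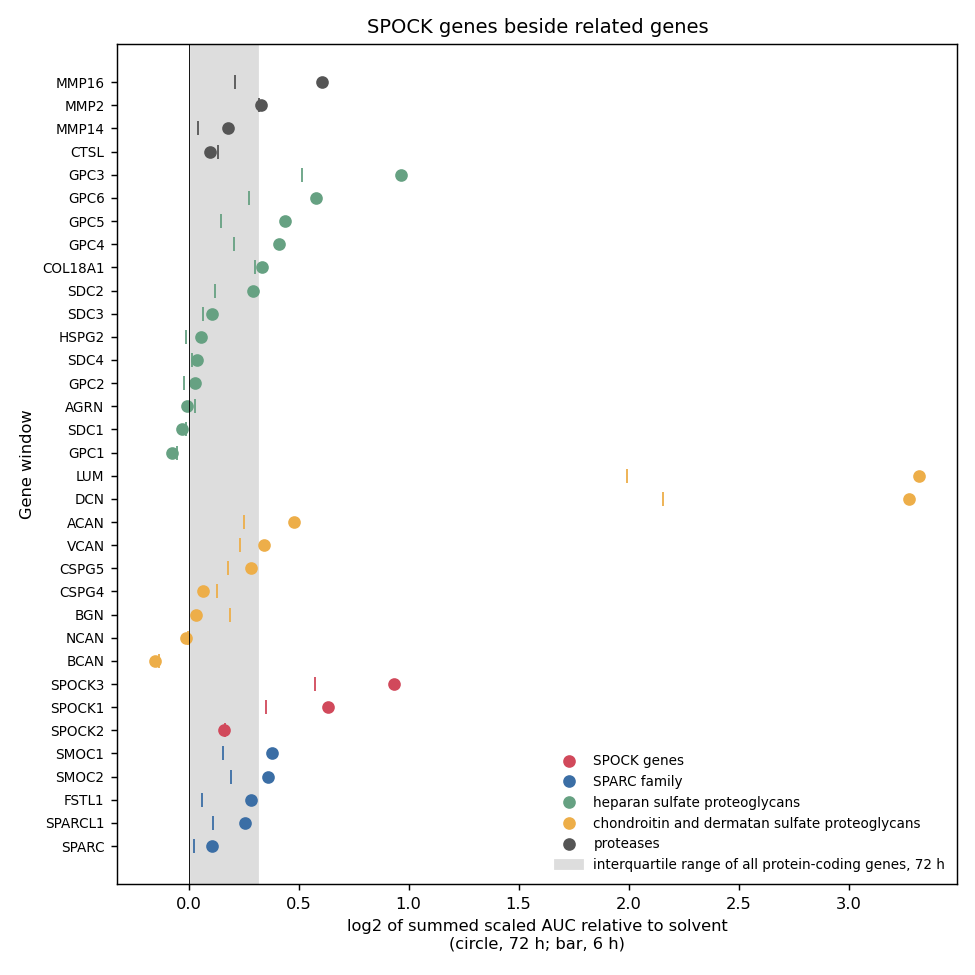
Log2 of summed scaled AUC relative to solvent for the window of each gene, at 72 h as a circle and at 6 h as a bar, coloured by gene list, with the interquartile range of all protein-coding windows at 72 h shaded (0.01 to 0.32). SPOCK1 (0.63) and SPOCK3 (0.93) lie to the right of the shaded band, SPOCK2 (0.16) and SPARC (0.11) inside it, and DCN and LUM far to the right.

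Among the 7636 other protein-coding genes with at least 20 regions whose windows lay clear of the SPOCK1 regions, those whose log2 ratios at the 3 times lay closest to SPOCK1 by Euclidean distance were UPP2 (0.00854), EED (0.0110), EDN1 (0.0142), DPYSL3 (0.0205) and RUNX1 (0.0238). This likeness is over 4 conditions that share 1 solvent list. EDN1 encodes the vasoconstrictor endothelin-1 and RUNX1 a transcription factor. The RUNX1 window, with 106 regions, had 40 gained at 72 h, and its sum was 68115 in solvent and 104188 at 72 h.

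For each region, both strands of its strongest summit and the 100 bp on each side were read for 4 motifs. The AP-1 motif (TGACTCA or TGAGTCA) was in 21 of 60 SPOCK1, 6 of 24 SPOCK2 and 6 of 22 SPOCK3 windows (35.0% at SPOCK1 and 27.3% at SPOCK3), against 32.2% of all regions and 37.5% of all distal regions. In SPOCK1 it was in 5 of 12 sites gained by 6 h and kept (40.1% of all such regions held it) and in 4 of 8 sites at least 2-fold higher at 72 h (47.2%). Of the printed windows, SPOCK1-37, SPOCK1-39, SPOCK1-33 and SPOCK3-15 hold it, and SPOCK1-31, SPOCK1-2 and SPOCK1-34 do not. The motif GGAATG, part of the site of TEAD factors, was in 26 of 106 member windows (24.5%), 14 of them at SPOCK1. It was in 15.9% of all regions and 17.4% of all distal regions. The E-box CACCTG, bound by SNAIL and ZEB factors, was in 13 of 60 SPOCK1 windows (21.7%; 18.0% of all and 17.7% of all distal regions). The palindrome GTCTAGAC, which SMAD factors bind, was in none of the 106 and in 0.300% of all regions. The shares at SPOCK1 were thus near those of the whole series for AP-1 and the E-box.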

How the data were processed

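ATAC-seq was carried out by the authors on 8 MCF10A libraries, 2 replicates per condition. According to the methods and the submitters' processing notes, reads were trimmed with Trimmomatic 0.38, mapped to GRCh38 with Bowtie2 2.4.5, cleared of duplicates and filtered with Picard and SAMtools 1.4.1, and peaks were called with Genrich 0.5 on both replicates together. Each list was matched to its condition by the name the authors gave it. The signal deposited by the authors for a peak is its AUC, which is never below 200, rises with depth and peak width and was not normalised between lists. The deposited −log10 q values at the summits (at least 2.81) were read, but no result rests on them. The lists hold no read totals and no values per replicate, so the depth reached and its precision are unknown and no test was made.

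Computed here were the merged regions, scaled AUC, sums per gene window (gene body and 100 kb each side, GENCODE 44) and motif counts, with Python 3.11.15, numpy 2.4.6, pandas 2.3.3 and pysam 0.24.0. A missing peak counted as 0. Plots were made with matplotlib 3.10.9, and the merging and scaling were tested on simulated data. The members, gene lists, motifs and naming rules were chosen with earlier results of these data known. Regions named were those within 3 kb of a member's TSS and, for SPOCK1, the 5 strongest gained, the 5 strongest distal, the 5 with the largest fold difference in each direction, the lost and up to 3 early ones. For SPOCK2 and SPOCK3 they were the 5 strongest and the 5 largest gained or lost. SPOCK2-17, SPOCK2-19, SPOCK3-21, SPOCK3-22 and the sums by intron were chosen after their values were seen. RefSeq promoter entries were found for SPOCK2 and SPOCK3 and were not printed. Alternatives were lists cut to equal length (86209 peaks), only peaks with AUC of at least 400, an overlap of 50% of both peaks, the gene body alone, the nearest TSS, unscaled AUC, scaling on all shared regions and AUC per base.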

Additional observations from a re-analysis of the deposited data

How the results depend on the processing

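Every log2 ratio of summed scaled AUC stayed above 0 under the 9 alternatives that give one (the overlap of 50% and the scaled AUC of at least 200 were run for region counts only), and 73 of the 117 recomputed values lay within 1.5 times the reported value. The following did not, and the cause was not tested unless the construction of the alternative shows it. With lists of equal length, which lifts the minimum AUC of the TGFβ1 lists, SPOCK1 had 6, 10 and 12 regions gained at 6, 24 and 72 h and 3 lost at 72 h (14.3%, 22.2% and 26.1% gained, against 9.19%, 13.2% and 15.6% of all regions), SPOCK2 had 2 and SPOCK3 had 4 gained at 72 h, and the SPOCK2 log2 ratio at 72 h was 0.10. With an overlap of 50% of both peaks, 4 SPOCK1 peaks were lost and 8 SPOCK2 peaks gained at 72 h. No SPOCK1 region was lost (0) with a minimum AUC of 400, in the gene body without flank and by nearest TSS. In the gene body alone SPOCK2 had 2 gained at 72 h and a log2 ratio of 0.42 at 24 h and 0.37 at 72 h. By nearest TSS SPOCK2 had 3 gained and ratios of 0.55, 0.84 and 0.97, and SPOCK3 had 5 gained. For SPOCK2 this leaves out the sites assigned to CHST3, ASCC1 and ENSG00000272988, the last including SPOCK2-10. Of the sites left, only SPOCK2-17 (1056) and SPOCK2-19 (282) had a solvent peak, so these ratios have a low base. With AUC not scaled, ratios were 0.79 and 0.92 for SPOCK1 at 6 and 24 h, 0.61, 0.55 and 0.41 for SPOCK2 and 1.02 for SPOCK3 at 6 h. With AUC scaled on all shared regions, SPOCK2 had 0.10, 0.044 and 0.018, and with AUC per base 0.29 and 0.26 at 24 and 72 h. That alternative divides each region's AUC by its covered bases before summing over regions, and is not the AUC per covered base of a whole window. Further alternatives were chosen after seeing the data. Over regions with a peak in all lists, ratios were 0.41 for SPOCK1 at 72 h, 0.10, 0.065 and 0.089 for SPOCK2 and 0.34, 0.48 and 0.55 for SPOCK3. With missing peaks set at the AUC threshold, they were 0.10, 0.090 and 0.10 for SPOCK2 and 0.32 for SPOCK3 at 6 h. With a scaled AUC of at least 200, 2 SPOCK1 regions were lost and 3 SPOCK2 regions gained at 72 h. No paired analysis was possible because each deposited list pools both replicates, and for the same reason no replicate could be left out.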
